A study of Mus musculus with 24 samples.

Results

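The genes described here encode the AP-1 transcription factors and the immediate early factors measured with them: *Jun*, *Junb* and *Jund* of the JUN family, *Fos*, *Fosb*, *Fosl1* and *Fosl2* of the FOS family, the ATF member *Atf3*, and the zinc finger factor *Egr1*. They were chosen by gene symbol, and 8 of the 9 named genes were among the 12091 genes of the deposited table. *Fosb* was absent from it and was not analysed here.

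AP-1 is a dimer of basic leucine zipper proteins. JUN proteins pair with one another or with FOS proteins, FOS proteins cannot pair with themselves, and the pair decides how strongly the dimer drives transcription from its DNA site. Many of these genes are immediate early genes, which are transcribed within minutes of a growth factor or stress signal through MAP kinases and without new protein synthesis, and their transcripts are short-lived. In mammary tumors, *Fosl1* is known for high expression in invasive, mesenchymal cancer cells, and *Fos* and *Egr1* are known to respond to tissue dissection and dissociation.

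The study tested pleiotrophin (PTN), a secreted heparin-binding growth factor, in mouse breast cancer, and RNA from 24 samples was sequenced in 4 experiments with 3 samples in each of 8 groups. In 2 tumor experiments, mice received the neutralizing anti-PTN monoclonal antibody 3B10 or the control antibody C44 at 15 mg/kg, given 2 times a week. 4T1 tumors, from a mammary carcinoma line of BALB/c mice, grew in the mammary fat pad of female BALB/c mice aged 8 wk at implantation and were treated from the time they could be felt. *MMTV-PyMT* tumors arise in FVB/N mice that carry the polyoma middle T oncogene under a viral promoter active in mammary epithelium; these mice were treated from 8 wk of age and their tumors were taken at 12 wk. In the other 2 experiments, cultured cells carried an shRNA against *Ptn* (shPTN, a single construct) or a control shRNA (shCtrl) whose target, EGFP, mouse cells do not have, and both were kept under puromycin for 6 wk. These cells were the C57BL/6 mammary carcinoma line E0771 and E0771-LG, derived from a lung metastasis of E0771, so that each line with each shRNA is a selected cell pool. The samples are stated to be biological replicates, but it is not stated that replicate cultures were transduced separately, and p-values for the cells measure only the spread between these samples.

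Values are the deposited log2 values. In the *MMTV-PyMT*, E0771 and E0771-LG samples these were log2 CPM, reads scaled to the total of the sample, with an offset of 0.5 reads, and the depth behind them was 15627925 to 21117920 reads per sample. The 4T1 values were on another scale, which is not stated and was taken as length-normalized without a test. The 4T1 depth is unknown, so that levels were not compared between 4T1 and the other samples. A gene was tested in an experiment where at least 3 samples lay 1 or more above the lowest value of the sample, off the log scale, and it was called where limma gave an adjusted p under 0.05, with the adjustment made across every gene tested in that experiment. All 8 genes were tested in 4T1 tumors and in E0771 cells. *Fosl1* did not reach that level in *MMTV-PyMT* tumors and *Fos* did not in E0771-LG cells.

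*Ptn*, the target of the shRNA, was checked first. In E0771 cells, its log2 CPM was 2.90, 2.18 and 2.28 with shCtrl and -0.63, 0.25 and 0.53 with shPTN, a change of -2.40 ± 0.37 (SE; n = 3 per group; adjusted p = 0.00159, limma). In E0771-LG cells, it was 3.65, 4.51 and 3.74 with shCtrl and 1.42, 0.98 and 1.38 with shPTN, a change of -2.71 ± 0.28 (SE; n = 3 per group; adjusted p = 6.3e-05, limma). The groups did not overlap in either line, and every library was on the side of its label. In tumors, where the antibody acts on the protein, *Ptn* was 2.80, 2.73 and 3.42 with C44 and 3.28, 2.95 and 4.22 with 3B10 in *MMTV-PyMT* and was too low to be tested in 4T1.

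**Figure D1:**
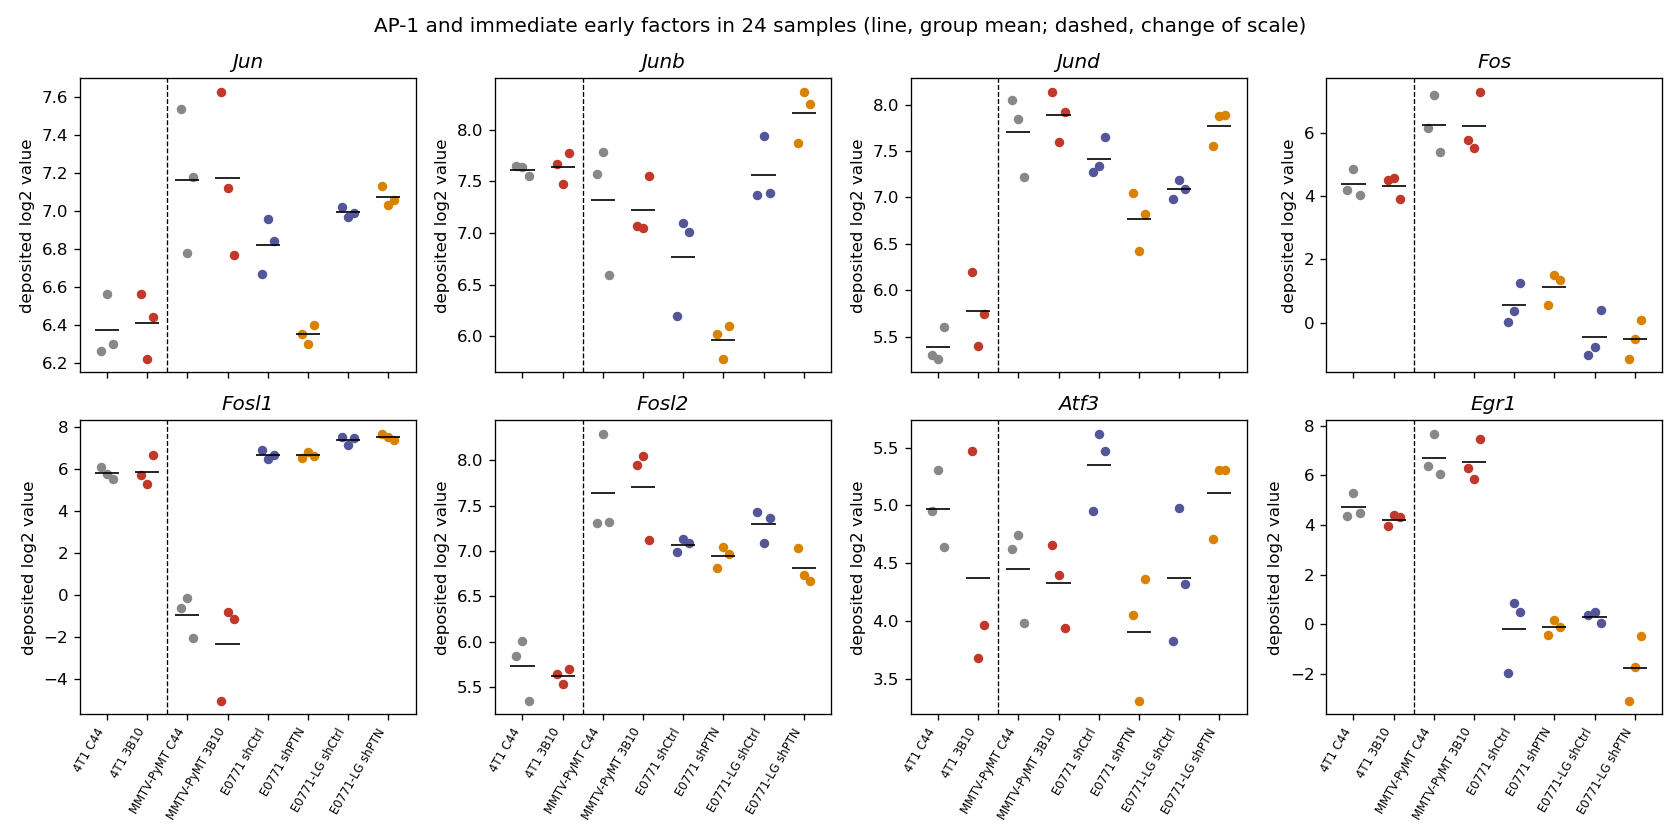
Deposited log2 value of each of the 8 genes (y axis, a separate range for each gene) in the 24 samples by group (x axis), with each point 1 sample and each line the mean of 3. Left of the dashed line are the 4T1 tumors, on a scale that is not stated, and right of it log2 CPM. *Fos* and *Egr1* were higher in *MMTV-PyMT* tumors than in cultured cells, where they rested on at most 51 reads per sample. *Fosl1* was near the floor only in *MMTV-PyMT*, and *Junb* and *Jund* were lower with shPTN in E0771 and higher with it in E0771-LG cells.

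Among the JUN genes, which supply the partner common to all AP-1 dimers, levels were ordered within each model. Levels between genes were compared per kb of exon. On that log2 scale, E0771 shCtrl cells had *Jund* at 6.68 ± 0.20 (SD, n = 3), *Junb* at 5.57 ± 0.49 and *Jun* at 5.15 ± 0.15, and the last 2 did not differ beyond their spread. E0771-LG shCtrl cells had *Junb* at 6.36 ± 0.33 and *Jund* at 6.35 ± 0.11, not distinguishable from each other, above *Jun* at 5.32 ± 0.02. *MMTV-PyMT* tumors with C44 had *Jund* at 6.97 ± 0.43, *Junb* at 6.11 ± 0.64 and *Jun* at 5.49 ± 0.38. Neighbors in that order overlapped between tumors. Within each of these tumors *Jund* led, with 50.5 to 53% of the summed JUN level off the log scale. *Junb* supplied 23.7 to 35.8% and *Jun* 12.8 to 25.8%. In 4T1 tumors with C44, *Junb* led at 7.61 ± 0.06 on the deposited scale, followed by *Jun* at 6.37 ± 0.16 and *Jund* at 5.39 ± 0.19, with no overlap between neighbors. Off the log scale, *Junb* supplied 61.1% ± 2.17 (SD, n = 3) of the summed JUN level in 4T1 tumors with C44. In E0771 shCtrl cells, *Jund* supplied 55.1% ± 4.92 and *Junb* 25.8% ± 5. The 4T1 scale is not stated, and 4T1 values were not divided by gene length here. The 4T1 order and shares therefore hold only if that scale is length-normalized. A difference between 4T1 and the other models in order or share cannot be told apart from the scale.

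The FOS genes, whose products need a JUN partner, differed between the cultured lines and the *MMTV-PyMT* tumors. *Fosl1*, which encodes FRA-1, supplied 77.4% ± 3.24 (SD, n = 3) of the summed FOS level per kb in E0771 shCtrl cells and 83% ± 0.213 in E0771-LG shCtrl cells. *Fosl2*, which encodes FRA-2, supplied nearly all the rest, since *Fos* gave 1.02% ± 0.486 and 0.333% ± 0.175. In *MMTV-PyMT* tumors with C44 the makeup was the opposite: *Fos* supplied 60.9% ± 7.72, *Fosl2* 38.7% ± 7.86 and *Fosl1* 0.468% ± 0.174. The *Fosl1* reads were 12, 17 and 4 in these 3 tumors and 0, 10 and 7 with 3B10, against 1672 to 2014 in E0771 shCtrl cells. In *MMTV-PyMT* tumors with 3B10, *Fos* supplied 57.3% ± 21.7 (41.8 to 82.2) and *Fosl2* 42.4% ± 21.7 (17.6 to 57.6), so that *Fos* did not lead in every tumor. In 4T1 tumors with C44, on the deposited scale, *Fosl1* supplied 42.9% ± 5.74, *Fosl2* 41.1% ± 2.49 and *Fos* 16% ± 3.47. The first 2 did not differ beyond their spread, and these shares too hold only if that scale is length-normalized.

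*Fos* and *Egr1* were nearly silent in culture. *Fos* had 17, 26 and 39 reads in E0771 shCtrl cells and 8, 11 and 24 in E0771-LG shCtrl cells, whereas it had 1382, 2875 and 793 in *MMTV-PyMT* tumors with C44. *Egr1*, a zinc finger activator induced with *Fos*, had 4, 37 and 23 reads in E0771 shCtrl cells, 22, 27 and 19 in E0771-LG shCtrl cells and 1588, 3940 and 1262 in *MMTV-PyMT* tumors with C44. Every tumor of that model was above every cell sample for both genes. *Atf3*, a stress-induced member that often represses, was present throughout, at 4.24 ± 0.35 per kb (log2, SD, n = 3) in E0771 shCtrl cells, 3.27 ± 0.58 in E0771-LG shCtrl cells and 3.34 ± 0.41 in *MMTV-PyMT* tumors with C44. Tumors hold many cell types and the cultures 1, and in bulk samples fewer cells of a type and less RNA per cell cannot be told apart.

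**Figure D2:**
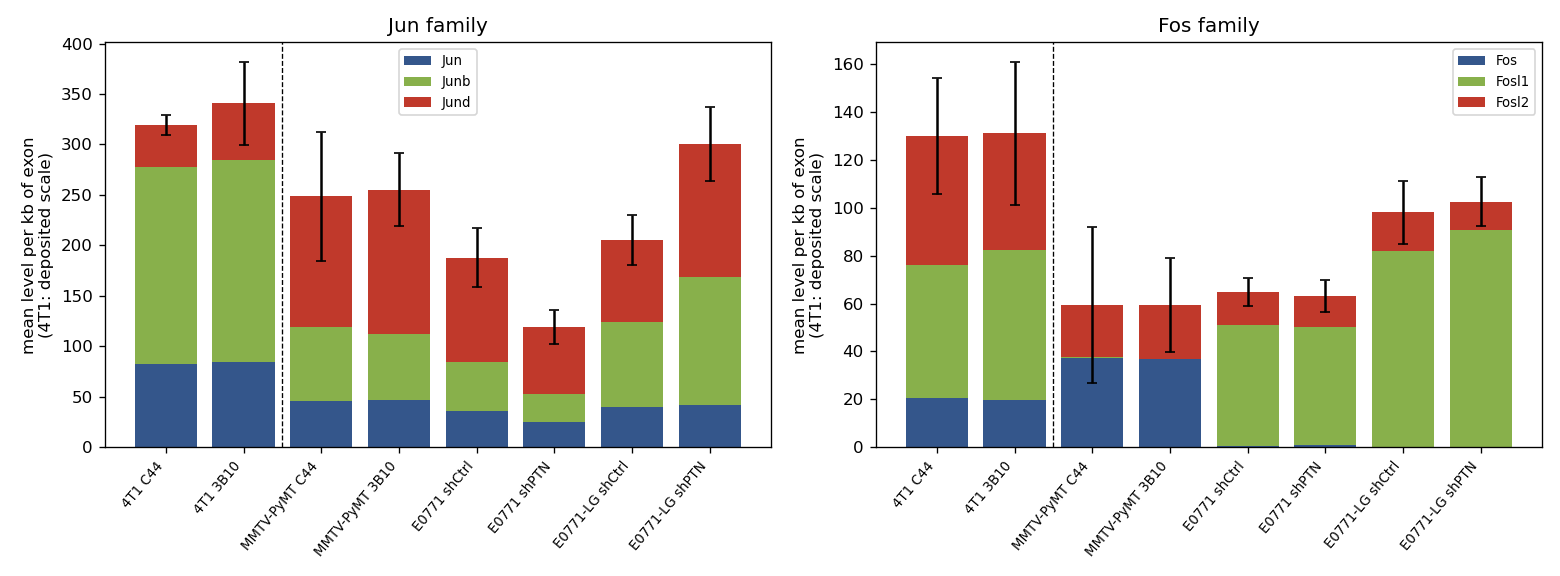
Summed level of the JUN genes (left) and the FOS genes (right) per kb of exon, off the log scale, by group. Each bar is the mean of 3 samples divided by gene, and the error bar is the SD of the sum. The 2 groups left of the dashed line are on the deposited 4T1 scale and were not divided by exon length. *Fosl1* filled most of the FOS bar in cultured cells and under 1% of it in *MMTV-PyMT* tumors, and the JUN bar was lower with shPTN in E0771 and higher with shPTN in E0771-LG.

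In E0771 cells, shPTN lowered all 3 JUN genes and *Atf3*. *Jun*, the founding AP-1 subunit, had log2 CPM of 6.67, 6.96 and 6.84 with shCtrl and 6.35, 6.30 and 6.40 with shPTN. The shPTN samples all lay under the lowest shCtrl sample, and the change was -0.47 ± 0.09 (SE; adjusted p = 0.0059, limma), which is 1.39-fold lower; the call was lost with all 24 samples in 1 fit (adjusted p = 0.105; range 0.00277 to 0.105). *Junb*, a weaker activator that can restrain *Jun* function, was 6.20, 7.10 and 7.01 with shCtrl and 6.02, 5.78 and 6.10 with shPTN. The groups did not overlap, but shCtrl replicate 1 lay close to the shPTN samples. The change was -0.80 ± 0.22 (SE; adjusted p = 0.034, limma), and the call was lost when any 1 of 5 samples was left out, with adjusted p of 0.0924 and 0.103 without shCtrl replicates 2 and 3 and 0.111, 0.115 and 0.0642 without shPTN replicates 1, 2 and 3, in a range of 0.000561 to 0.115 over its 14 alternative settings. It was lost also without the filter on low values (0.0562) and with all 24 samples in 1 fit (0.0583).

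*Jund*, the JUN gene that is expressed steadily in most cells, was 7.27, 7.34 and 7.65 with shCtrl and 7.05, 6.42 and 6.82 with shPTN. All shPTN samples were lower, by -0.65 ± 0.16 (SE; adjusted p = 0.0157, limma), with adjusted p = 0.0597 when shCtrl replicate 3 was left out (range over the alternatives 0.00417 to 0.0649). *Atf3* was 4.95, 5.62 and 5.47 with shCtrl and 4.05, 3.31 and 4.36 with shPTN. No samples overlapped, and with a change of -1.44 ± 0.27 (SE; 2.71-fold lower; adjusted p = 0.00662, limma) it moved most among the 8 genes in this line; it stayed called in all 14 alternative settings, with adjusted p between 0.00244 and 0.0282. The FOS genes and *Egr1* were not called: the changes were -0.02 ± 0.12 for *Fosl1*, -0.13 ± 0.09 for *Fosl2*, 0.59 ± 0.42 for *Fos* and 0.07 ± 0.68 (SE) for *Egr1*, the last 2 on at most 51 reads per sample, and *Fos* ran from 0.32 without shCtrl replicate 1 to 0.94 without shCtrl replicate 3. The *Fosl2* change was -0.062 without shPTN replicate 1, and that of *Egr1* was -0.80 without shCtrl replicate 1. Thus 4 of the 8 genes were called, all lower, where 20.6% of the 10394 genes tested were called, 11.7% lower and 8.89% higher. The count of all genes called, 2140, was 1268 without shCtrl replicate 2, 1164 without shCtrl replicate 3 and 1220 without shPTN replicate 3.

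In E0771-LG cells, shPTN moved *Junb* and *Jund* the other way. *Junb* was 7.37, 7.94 and 7.39 with shCtrl and 7.87, 8.37 and 8.25 with shPTN. The lowest shPTN sample lay just under the highest shCtrl sample, and the change was 0.59 ± 0.18 (SE; adjusted p = 0.0253, limma); the call was lost without shCtrl replicate 1 or 3 (adjusted p = 0.108 and 0.0869) or without shPTN replicate 2 or 3 (0.0928 and 0.0787), in a range of 0.000669 to 0.108. *Jund* was 6.98, 7.19 and 7.09 with shCtrl and 7.55, 7.88 and 7.89 with shPTN. All shPTN samples were higher, by 0.69 ± 0.11 (SE; 1.61-fold; adjusted p = 0.00083, limma), and the call held in all 14 alternative settings. *Jun* was 7.02, 6.97 and 6.99 with shCtrl and 7.13, 7.03 and 7.06 with shPTN. The groups did not overlap, but they were so close that the difference was 0.08 ± 0.09 (SE; adjusted p = 0.471, limma).

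*Atf3* in E0771-LG was 3.83, 4.98 and 4.32 with shCtrl and 4.71, 5.31 and 5.31 with shPTN, with 1 shCtrl sample inside the shPTN range. The change of 0.73 ± 0.30 (SE; adjusted p = 0.0831, limma) missed the threshold. It was 0.46 without shCtrl replicate 1 and 1.04 without shCtrl replicate 2, and it passed with adjusted p = 0.00251 without shCtrl replicate 2 and with 0.00271 in a fit with a replicate block (range over the alternatives 0.00251 to 0.212). *Fosl2* was 7.43, 7.09 and 7.36 with shCtrl and 7.03, 6.73 and 6.67 with shPTN. It was lower in every shPTN sample, by -0.48 ± 0.13 (SE; adjusted p = 0.00961, limma), and the call was lost without shPTN replicate 2 or 3 (adjusted p = 0.0529 and 0.0528; range 0.00203 to 0.114). *Fosl1*, which carried most of the FOS level, was not called (0.16 ± 0.12, SE; 0.041 without shCtrl replicate 2 and 0.089 without shPTN replicate 1).

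*Egr1* had 22, 27 and 19 reads with shCtrl and 2, 5 and 12 with shPTN in E0771-LG. All shPTN samples were lower, by -2.07 ± 0.72 (SE; adjusted p = 0.0358, limma), and the size rests on very few reads: with a pseudocount of 1 it was -0.73, and without shPTN replicate 1 or 2 it was not called (adjusted p = 0.092 and 0.0832; range 0.003 to 0.092). *Egr1* entered the test through its shCtrl samples alone, so its call is not counted as support. Of the other 6 genes tested, 2 were called higher and 1 lower, where 46.4% of the 10405 genes tested were called, 22.1% lower and 24.3% higher. The count of all genes called, 4826, was 3206 without shPTN replicate 2.

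**Figure D3:**
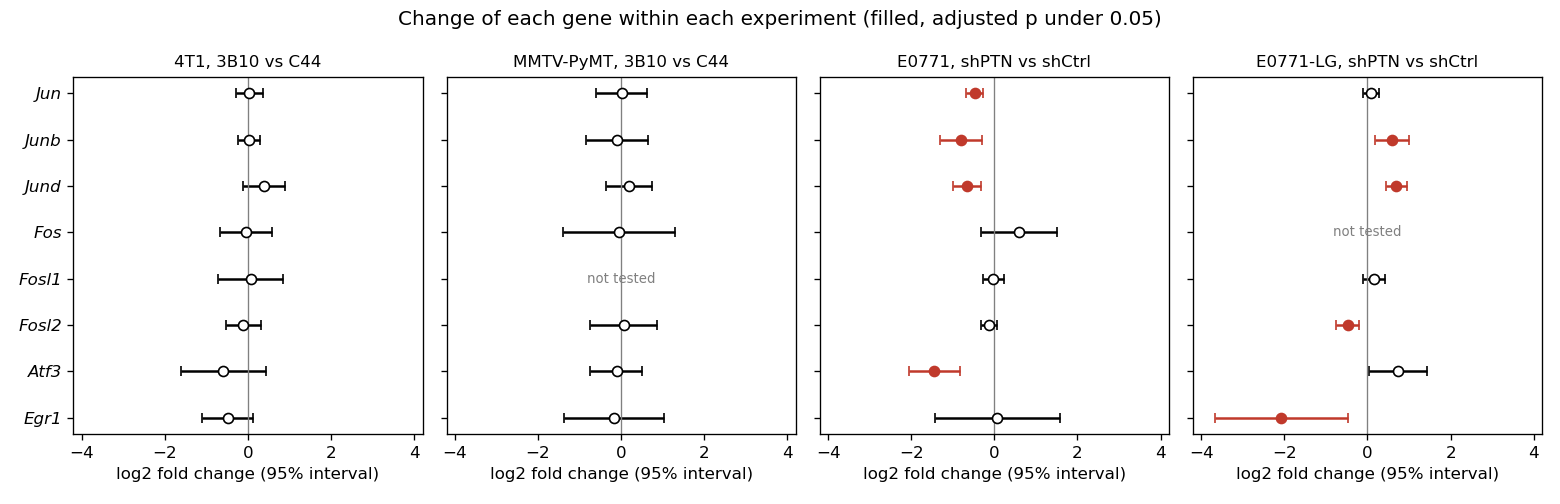
Change of each gene within each experiment, as log2 fold change (x axis) with its 95% interval, from 3 against 3 samples. Filled red points had an adjusted p under 0.05. The intervals in tumors crossed 0 for every gene tested, *Junb* and *Jund* lay below 0 with shPTN in E0771 and above it in the metastasis-derived line, and *Fosl1* in *MMTV-PyMT* and *Fos* in E0771-LG were not tested.

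The difference between the lines was tested directly, as the shPTN effect in E0771-LG minus that in E0771. It was 0.56 ± 0.12 (SE) for *Jun* (adjusted p = 0.00363, limma), 1.40 ± 0.33 for *Junb* (0.00836), 1.34 ± 0.21 for *Jund* (0.000483) and 2.17 ± 0.46 for *Atf3* (0.00478). These 4 of the 8 genes were called, all with the higher effect in E0771-LG, where 34% of the 10600 genes tested were called. Those for *Junb*, *Jund* and *Atf3* were called in all 20 alternative settings, and that for *Jun* in 19 of 20, the exception being the fit of all 24 samples at once (adjusted p = 0.119; range 0.00166 to 0.119). The differences for *Fosl2* (-0.35 ± 0.16, SE; adjusted p = 0.0999, limma), *Egr1* (-2.14 ± 1.06; 0.129), *Fos* (-0.66 ± 0.75; 0.521) and *Fosl1* (0.18 ± 0.18; 0.45) were not called. *Fosl2* passed without E0771-LG shCtrl replicate 2 (adjusted p = 0.0307) or shPTN replicate 1 (0.0321), in a range of 0.0307 to 0.489, and *Egr1* passed with quantile normalization (0.0399; range 0.0399 to 0.305). The *Egr1* difference was -0.64 with a pseudocount of 1 and -1.27 without E0771 shCtrl replicate 1. *Ptn* itself fell by amounts that were not distinguishable between the lines (difference -0.30 ± 0.48; adjusted p = 0.651).

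The lines also differed from each other with the control shRNA. E0771-LG shCtrl cells had *Fosl1* higher by 0.69 ± 0.13 (SE; adjusted p = 0.000267, limma) and *Junb* higher by 0.80 ± 0.23 (0.0124) than E0771 shCtrl cells, and *Atf3* lower by -0.97 ± 0.33 (0.0244). These were 3 of 8 genes, where 57.9% of the 10600 genes tested were called. The median of all genes was shifted by -0.15 in this contrast; with median-of-ratios scaling, which removes the shift, the same 3 differences were 0.85, 0.96 and -0.81, and *Jun* (0.33; adjusted p = 0.00503) and *Fosl2* (0.38; adjusted p = 0.012) were called as well, in ranges of 0.00503 to 0.481 and 0.012 to 0.477 over the alternatives. The *Atf3* samples of the lines overlapped, and its call was lost with quantile normalization (adjusted p = 0.07), without E0771 shCtrl replicate 2 or 3 (0.0839 and 0.0694) and without E0771-LG shCtrl replicate 1 or 3 (0.0867 and 0.0565), in a range of 0.00436 to 0.0867. The *Fosl1* call was lost with all 24 samples in 1 fit (adjusted p = 0.449; range 6.06e-05 to 0.449). The *Junb* difference was 0.51 without E0771 shCtrl replicate 1. *Jun* also passed without E0771 shCtrl replicate 2 (0.0486), *Fosl2* without E0771-LG shCtrl replicate 2 (0.0245), *Fos* without E0771-LG shCtrl replicate 3 (0.0414; range 0.0414 to 0.37) and *Jund* without E0771 shPTN replicate 1 or 2 (0.0407 and 0.0269; range 0.0269 to 0.309). This contrast and the difference of the shPTN effects use the same shCtrl samples as the comparisons within each line. With shPTN, *Junb* was 5.97 ± 0.17 (log2 CPM, SD, n = 3) in E0771 and 8.16 ± 0.26 in E0771-LG. *Atf3*, at 5.35 ± 0.35 in E0771 and 4.38 ± 0.58 in E0771-LG with shCtrl, stood in the other order with shPTN, at 3.91 ± 0.54 and 5.11 ± 0.35.

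The promoters of the 4 genes whose shPTN effect differed between the lines are shown because the difference was called for each of them. Each is 250 bases before to 50 bases after the gene's start in RefSeq (GRCm38.p6), read 5′ to 3′ on the gene's strand, and 7 of the 9 named genes had an entry. The windows lie at chr4:95052173-95052472 (*Jun*, minus strand), chr8:84978699-84978998 (*Junb*, minus strand), chr8:70697489-70697788 (*Jund*, plus strand) and chr1:191183284-191183583 (*Atf3*, minus strand). The RefSeq start is that of GENCODE for *Jun*, 30 bases upstream of it for *Junb*, 1210 bases upstream for *Jund* and 34706 bases downstream for *Atf3*, so that the last 2 windows lie at only 1 of the annotated starts. Capitals mark matches, on either strand, to TGANNTCA or to TGACG.
Jun: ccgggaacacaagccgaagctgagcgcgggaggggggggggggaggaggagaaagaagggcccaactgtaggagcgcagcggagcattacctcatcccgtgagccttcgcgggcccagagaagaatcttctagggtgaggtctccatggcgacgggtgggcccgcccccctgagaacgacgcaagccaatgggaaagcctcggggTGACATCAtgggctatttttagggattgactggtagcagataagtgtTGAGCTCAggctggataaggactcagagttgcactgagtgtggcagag
Junb: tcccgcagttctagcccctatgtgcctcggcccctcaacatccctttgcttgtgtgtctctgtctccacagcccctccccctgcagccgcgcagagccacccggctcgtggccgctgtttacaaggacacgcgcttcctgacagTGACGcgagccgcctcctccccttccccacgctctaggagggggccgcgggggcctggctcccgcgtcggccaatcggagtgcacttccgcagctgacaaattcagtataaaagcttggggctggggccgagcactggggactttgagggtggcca
Jund: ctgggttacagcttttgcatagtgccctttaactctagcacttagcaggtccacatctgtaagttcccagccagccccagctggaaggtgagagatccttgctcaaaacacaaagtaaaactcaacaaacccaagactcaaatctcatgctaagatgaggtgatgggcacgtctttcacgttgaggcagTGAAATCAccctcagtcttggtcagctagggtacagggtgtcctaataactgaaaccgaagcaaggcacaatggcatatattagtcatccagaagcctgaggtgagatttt
Atf3: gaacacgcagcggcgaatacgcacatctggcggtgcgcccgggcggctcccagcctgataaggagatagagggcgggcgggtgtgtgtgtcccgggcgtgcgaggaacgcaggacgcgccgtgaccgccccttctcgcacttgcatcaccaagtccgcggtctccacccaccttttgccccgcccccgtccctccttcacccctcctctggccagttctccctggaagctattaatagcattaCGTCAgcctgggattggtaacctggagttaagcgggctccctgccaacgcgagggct

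The motifs were sought on both strands. TGANTCA, the AP-1 site, was in 7.81% of 32841 promoter windows and in none of these 4. TGANNTCA, the AP-1 site with 1 more central base, which also takes in the cyclic AMP response element TGACGTCA, was in 14.1% of all windows. It occurred in *Jun* as TGACATCA, 45 bases before the start, and as TGAGCTCA just after it, and in *Jund* as TGAAATCA, 61 bases before the start. TGACG, the core of the cyclic AMP response element, was in 20.8% of all windows, in *Junb* 106 bases before the start and in *Atf3*, on the other strand, 7 bases before it. TGACGTCA (1.79% of windows), the EGR site GCGNGGGCG (5.55%), the CArG box of serum response factor (1.63%) and the NF-kB site (8.46%) had no match in the 4 windows. A match describes the letters of the window only.

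Other immediate early genes were taken from a list. Of 55 on the list, 48 were tested in both lines. In E0771, 16 were called lower and 6 higher with shPTN, with a median change of -0.26 against -0.03 for all genes, so that 45.8% were called against 20.6% of all genes. In E0771-LG, 7 were called lower and 15 higher, with a median of 0.11 against 0.05, and the share called, 45.8%, was near that of all genes (46.4%). The largest changes in E0771 were those of the zinc finger factors *Klf2* (-1.93 ± 0.12, SE) and *Klf4* (-1.04 ± 0.13) and the kinase *Plk3* (-1.02 ± 0.19), which fell, and of the stress sensor *Gadd45b* (1.62 ± 0.24), the matricellular *Ccn2* (1.59 ± 0.27) and the MAP kinase phosphatase *Dusp1* (1.11 ± 0.11), which rose. In E0771-LG, the 6 largest were all increases: *Gadd45g* (1.58 ± 0.36), the kinase *Pim1* (1.39 ± 0.43), *Gadd45b* (1.19 ± 0.19), *Gadd45a* (1.13 ± 0.32), the nuclear receptor *Nr4a1* (1.13 ± 0.24) and *Klf2* (1.11 ± 0.13).

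Called in both lines were 12 of these 48 genes, 6 of them in the same direction and 6 in opposite directions: *Klf2*, *Gadd45a*, *Nfkbia*, *Pim1* and *Rhob* lower in E0771 and higher in E0771-LG, and *Sgk1* the reverse. Among all 10221 genes tested in both lines, 1028 (10.1%) were called in both and 334 (3.27%) in opposite directions, 143 of them lower in E0771 and higher in E0771-LG. *Junb* and *Jund* were called in both lines, in opposite directions. The difference between the lines was called for 21 of the 48 genes on the list (43.8%, against 34% of all genes), 15 with the higher effect in E0771-LG and 6 with the lower.

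**Figure D4:**
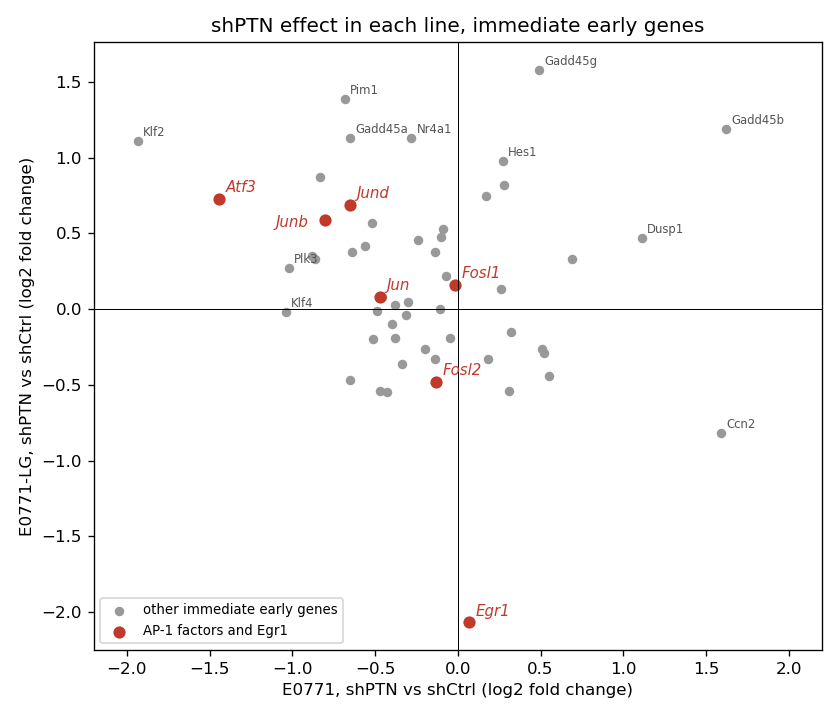
Log2 fold change with shPTN in E0771 (x axis) and in E0771-LG (y axis) for 7 of the 8 genes (red) and the 48 other immediate early genes tested in both lines (gray). The upper left quadrant, lower in E0771 and higher in E0771-LG, holds *Atf3*, *Junb*, *Jund*, *Jun* and *Fosl1*, and genes such as *Klf2*, *Pim1* and *Gadd45a*. *Junb* and *Jund* were called in both lines, *Jun* and *Atf3* in E0771 only, and *Fosl1* in neither.

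Of the basic leucine zipper genes whose products can pair with AP-1 subunits, 25 of 32 were tested in each line. In E0771, 3 were called lower and 2 higher (20%, against 20.6% of all genes), and in E0771-LG 4 lower and 5 higher (36%, against 46.4%), so that neither share exceeded that of all genes. Past the threshold in E0771 were *Batf2* (1.35), *Atf1* (-0.79), *Atf5* (0.56), *Cebpg* (-0.48) and *Atf4* (-0.30; all log2 changes). In E0771-LG, the largest changes were those of *Ddit3* (1.28), *Atf5* (1.04) and *Atf4* (0.76), which take part in the amino acid and unfolded protein response, *Atf7* (-0.70), *Nfil3* (0.68) and *Atf6* (-0.60). *Atf4*, which is known to activate *Atf3*, thus moved in opposite directions in the lines, and that difference was called (1.06; adjusted p = 9e-05, limma).

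Kinases and factors upstream of AP-1 were called lower for 5 and higher for 3 of 42 tested in E0771 (19%, against 20.6% of all genes) and lower for 12 and higher for 8 of 42 in E0771-LG (47.6%, against 46.4%). Among the larger changes in E0771 were those of the p38 kinase *Mapk11* (-0.74), the JNK gene *Mapk9* (-0.58), *Map3k1* (0.54), *Braf* (-0.49) and the ribosomal S6 kinase gene *Rps6ka3* (-0.41). In E0771-LG the largest changes were those of the JNK scaffold *Mapk8ip3* (1.63), *Map3k2* (-1.46), the protein kinase C gene *Prkca* (-1.16), *Map3k3* (-1.05), the ERK1 gene *Mapk3* (0.81) and *Mapk11* (0.65). *Mapk11* and *Rps6ka3* were lower in E0771 and higher in E0771-LG. Transcript levels do not report the activity of these kinases.

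Genes known as AP-1 targets were counted in the same way. In E0771, 12 of 39 tested were called lower and 6 higher (46.2%, against 20.6% of all genes), with a median of -0.05. In E0771-LG, 17 of 41 were called lower and 6 higher (56.1%, against 46.4%), with a median of -0.23 against 0.05 for all genes. Among the larger changes in E0771 were those of the cornified envelope gene *Sprr1a* (-2.44), the EGFR ligands *Ereg* (-1.99) and *Areg* (-1.66), and the chemokines *Ccl2* (-1.57) and *Cxcl1* (-1.54). In E0771-LG the largest changes were those of the prostaglandin synthase *Ptgs2* (-2.43), the matrix proteases *Mmp9* (-1.82) and *Mmp3* (-1.51), *Ereg* (-1.67), *Dcn* (1.64) and *Odc1* (-1.08). *Ereg* and *Ccl2* fell in both lines, and of the 9 targets called in both lines, 7 moved in the same direction, against 694 of 1028 among all genes, a similar share. In shCtrl cells, 26 of 44 targets were higher in E0771-LG and 7 lower (75%, against 57.9% of all genes), with a median of 0.58 against -0.15 for all genes. A link between these genes and the AP-1 genes was not tested.

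EGR cofactors and EGR1 targets were called lower for 4 and higher for 1 of 14 genes in E0771 (35.7%, against 20.6% of all genes), and lower for 3 and higher for 5 of 12 in E0771-LG (66.7%, against 46.4%). The changes in E0771 were those of *Fgf2* (-1.98), *Tgfb1* (-1.01), *Ndrg1* (-0.90), *Pdgfa* (0.48) and *Sod2* (-0.30). In E0771-LG, they included those of *Txnip* (-1.36), *Pdgfa* (1.27), *Flt1* (0.90) and the EGR corepressors *Nab2* (0.58) and *Nab1* (-0.56). Heat shock and handling stress genes, given because AP-1 genes can respond to sample handling, had 3 of 20 called higher and 0 lower in E0771 by limma (15%, against 20.6% of all genes), where *Hspb1* (1.26), *Adm* (1.18) and *Hsp90aa1* (0.42) rose. In E0771-LG, 8 of 19 were called higher and 3 lower (57.9%, against 46.4%; median 0.29 against 0.05), led by *Ddit3* (1.28), *Hspa1b* (-0.94), *Adm* (-0.75), *Trib3* (0.64), *Hsph1* (-0.57) and *Hspa5* (0.50). The part of handling in these results was not tested.

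In tumors, none of the 8 genes was called with 3B10. In 4T1 tumors, 0% of the 11467 genes tested were called by limma, and 719 had an unadjusted p under 0.05; none of the 8 genes was among them. *Egr1* had the smallest p of the 8, with values of 4.38, 5.29 and 4.47 with C44 and 3.96, 4.39 and 4.32 with 3B10. These groups overlapped by a small margin, and the change was -0.49 ± 0.26 (SE; 95% interval -1.10 to 0.12; adjusted p = 0.856, limma), or -0.20 without C44 replicate 2. *Jund* was 5.30, 5.26 and 5.60 with C44 and 6.20, 5.40 and 5.74 with 3B10 (0.39 ± 0.22, SE; interval -0.11 to 0.90), or 0.18 without 3B10 replicate 1 and 0.59 without 3B10 replicate 2. *Atf3* was 4.95, 5.31 and 4.64 with C44 and 5.47, 3.68 and 3.97 with 3B10, so that 1 tumor with 3B10 was the highest of the 6 and the other 2 the lowest (-0.59 ± 0.44); the difference was -1.14 without 3B10 replicate 1, -0.24 without 3B10 replicate 2 and -0.39 without 3B10 replicate 3. *Junb* and *Jun* were the most even, with intervals of -0.25 to 0.30 and -0.30 to 0.36, and *Fos*, *Fosl1* and *Fosl2* differed by -0.05 ± 0.27, 0.07 ± 0.34 and -0.11 ± 0.18.

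In *MMTV-PyMT* tumors, 0% of the 11361 genes tested were called by limma and 0 by voom on recovered reads, with 307 and 309 genes at an unadjusted p under 0.05. The differences of the 7 genes tested lay between -0.17 ± 0.52 (SE) for *Egr1* and 0.18 ± 0.24 for *Jund*, each with an adjusted p of 1. The intervals were wide: for *Fos*, -1.41 to 1.30. The difference of the 3B10 effects between the models was likewise called for 0% of 11944 genes by limma, with 320 at an unadjusted p under 0.05. It was -0.21 ± 0.35 (SE) for *Jund*, 0.48 ± 0.57 for *Atf3*, 0.32 ± 0.63 for *Egr1* and -1.45 ± 1.29 for *Fosl1*, which is near the floor in *MMTV-PyMT*; the *Atf3* value was 1.03 without 4T1 3B10 replicate 1 and 0.13 without 4T1 3B10 replicate 2, and the *Fosl1* value was -0.092 without *MMTV-PyMT* 3B10 replicate 1. Of the 6 pathway lists, 0 genes were called in either tumor model, as follows from the 0 genes called over the whole table.

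Within the *MMTV-PyMT* groups, single tumors differed far more than the groups did. *Fos* had log2 CPM of 6.17, 7.22 and 5.40 with C44 and 5.79, 5.53 and 7.31 with 3B10, a range of 3.75-fold over the 6 tumors. *Egr1* followed it, at 6.37, 7.68 and 6.07 with C44 and 6.29, 5.87 and 7.45 with 3B10. C44 tumor 2 and 3B10 tumor 3 were the highest for both genes, 1 in each group. *Junb* was 7.57, 7.79 and 6.59 with C44 and 7.07, 7.05 and 7.55 with 3B10, and *Jun*, at 7.54, 6.78 and 7.18 and 7.63, 7.12 and 6.77, was at its lowest in the same 2 tumors.

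Over the 6 *MMTV-PyMT* tumors, Pearson's r of *Fos* with *Egr1* was 0.97 (Spearman's rho 0.89), and 0.82 over the 4 left without the tumors farthest from the *Fos* median. *Fos* with *Junb* gave 0.86 (rho 0.83; 0.94 over the 4). *Fos* with *Jun* gave -0.66 (rho -0.54), which was 0.78 over the same 4. The r of *Fos* with *Jun* stayed negative over the 4 left without the tumors farthest from the *Jun* median. Its sign thus depended on which tumors were left out. In the 6 4T1 tumors, *Fos* with *Egr1* gave 0.51 (rho 0.43), which was -0.56 over the 4 left, so that it rested on single tumors, and *Fos* with *Junb* gave -0.36 (-0.13 over the 4). *Fos* with *Jun* gave 0.36 in 4T1 (rho 0.20), which was 0.27 over the 4 left by the *Fos* median and -0.86 over the 4 left by the *Jun* median. These are descriptions over few tumors, which share a model and a table.

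**Figure D5:**
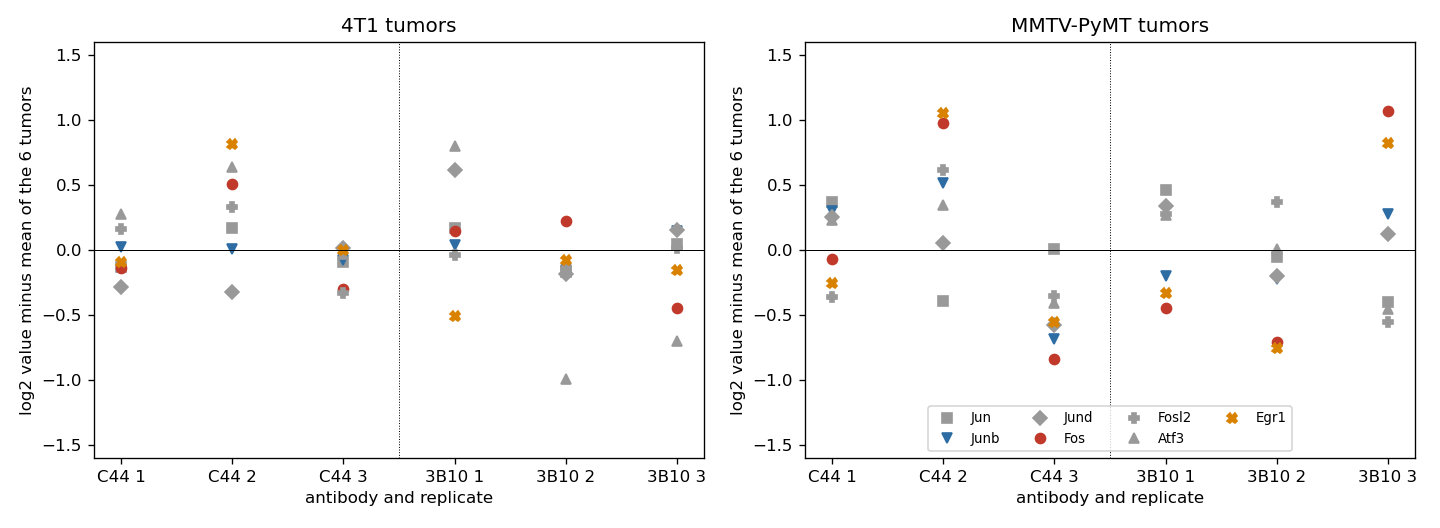
Deviation of 7 of the genes from their mean over the 6 tumors of each model (y axis, log2) in each tumor (x axis), for 4T1 (left) and *MMTV-PyMT* (right). *Fos* and *Egr1* lay about 1 above their mean in *MMTV-PyMT* C44 tumor 2 and 3B10 tumor 3. *Fosl1*, near the floor in *MMTV-PyMT*, is left out.

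The genes most alike in pattern were sought by Pearson's r over the 12 cell samples, among 10221 genes, and over the 12 tumors after each model's mean was subtracted, among 10888. In cells, where r is set mostly by the 4 group means, *Jun* was most like *Cdkn2aipnl*, *Gprc5a* and *Sox9* (r = 0.97 each) and *Junb* most like *Fam83g*, *Ier3* and *Il23a* (0.98 each). *Jund* was most like *Trappc6b*, *Pdhb* and *Cda* (0.96 each), and *Atf3* most like *Mst1*, *Arhgap45* (0.95 each) and *Csnk1e* (0.94). *Fosl1* was most like *Smn1*, *Zpr1* and *Pbdc1* (0.98 each), *Fosl2* like *Zfp275*, *Ptar1* and *Tmem209* (0.94 each), and *Egr1* like *Jup* (0.90), *Stat5b* (0.89) and *Cd276* (0.85). Among the genes themselves, r in cells was 0.91 for *Jun* with *Junb*, 0.84 for *Jund* with *Atf3* and 0.75 for *Junb* with *Jund*, and -0.46 for *Jund* with *Fosl2*.

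In tumors, *Egr1* was most like *Zfp36* (r = 0.93), *Fos* (0.88) and *Dusp1* (0.85), all of them immediate early genes. These r pool the models. For *Fos* with *Egr1*, r was 0.97 in *MMTV-PyMT* alone and 0.51 in 4T1 alone, the latter resting on single tumors. *Fos* was most like *Ilk*, *Gpc1* and *Btg2* (0.88 each) and *Junb* most like *Slc16a1* (0.91), *Plaur* (0.89) and *Slpi* (0.88). *Jun* was most like *Usf1* (0.88), *Snx17* (0.86) and *Lars2* (0.85), *Jund* like *Rab34*, *Nudt14* and *Endog* (0.91 each), *Fosl2* like *Bcl2l11* (0.94), *Brd8* and *Dnal1* (0.92 each), and *Atf3* like *Pitpnm1* (0.92), *Rnf11* and *Ndrg1* (0.85 each). The r of *Jun* with *Junb*, 0.91 in cells, was -0.27 in tumors.

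Markers of other cell types were set beside these results. In 4T1 tumors, the summed level of 8 leukocyte markers was 1298, 1264 and 1299 with C44 and 987, 1154 and 797 with 3B10, with *Cd53* (263) the most abundant with C44, and that of 10 macrophage markers was 4760, 4651 and 5196 and 3251, 4681 and 2997, led by *C1qa* (1882). The sum of 10 epithelial markers was 3353, 3667 and 3653 with C44 and 5239, 4834 and 5346 with 3B10, led by *Krt18* (2024), and the 6 skeletal muscle markers in the table summed to 15.4, 15.4 and 31.4 and to 53.9, 217 and 332. The T and NK cell markers summed to 172, 190 and 205 with C44 and 151, 95.9 and 40.4 with 3B10, and the neutrophil markers to 1919, 1944 and 2871 and to 2077, 1430 and 949. None of these markers was called by limma, and their part in the values of the AP-1 genes was not tested. In *MMTV-PyMT*, the fibroblast markers summed to 2563, 3890 and 1383 with C44 and 2722, 1870 and 1927 with 3B10, and the neutrophil markers to 6781, 5365 and 5758 and to 3228, 4057 and 3256, nearly all of it *Lcn2* (5941 with C44), which tumor epithelium also expresses. The endothelial markers (8 of 10 in the table, led by *Eng*) summed to 256, 438 and 289 with C44 and 238, 383 and 210 with 3B10 in 4T1, and the 2 adipocyte markers in the table to 12.1, 37.9 and 41.8 and to 27.4, 33.9 and 25.2. The 4 B cell markers were absent from the table.

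In the cultured lines, the leukocyte markers, mostly *Arhgdib*, summed to 113, 117 and 112 CPM in E0771 shCtrl and 172, 161 and 161 with shPTN, where 3 of 3 tested rose, and to 300, 337 and 291 and 242, 279 and 271 in E0771-LG, against 151, 151 and 118 in *MMTV-PyMT* tumors with C44. The endothelial markers, mostly *Eng*, summed to 217, 238 and 221 CPM in E0771 shCtrl and 215, 237 and 232 with shPTN, and to 229, 220 and 212 and 156, 166 and 160 in E0771-LG. The 2 adipocyte markers in the table, mostly *Fabp4*, summed to 10.9, 18.3 and 12 CPM in E0771-LG shCtrl and 1.18, 4.32 and 3.04 with shPTN, so that neither sum overlapped between the groups of that line. T and NK cell markers (8 of 10 in the table) summed to at most 3.21 CPM in any cell sample. The macrophage markers summed to 10.8, 25.5 and 19.1 CPM in E0771 shCtrl and 11.6, 10.2 and 9.53 with shPTN, and to 22.7, 24.1 and 22.5 and 12.6, 15.5 and 17.6 in E0771-LG, where 2 of 3 tested were called lower and 1 higher, and 4 of 10 macrophage markers were at their lowest value in all samples of each group. The epithelial markers, mostly *Krt8*, summed to 99.4, 114 and 107 CPM in E0771 shCtrl and 116, 99.6 and 109 with shPTN, and to 159, 204 and 164 and 424, 565 and 516 in E0771-LG, where all 3 tested rose. The fibroblast markers summed to 74.8, 101 and 86.5 CPM in E0771 shCtrl and 331, 293 and 330 with shPTN, where all 5 tested rose and *Col3a1* (154) led, and to 92, 145 and 107 and 58.3, 66.3 and 73.8 in E0771-LG. Beside these marker counts, 20.6% of all genes tested were called in E0771 (8.89% higher) and 46.4% in E0771-LG (24.3% higher). The part of the marker shifts in the changes of the JUN genes and *Atf3* was not tested.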

How the data were processed

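The authors aligned reads to mm10 with HISAT2, counted them per gene with featureCounts and tested genes with edgeR. The deposited log2 values were made before deposit by a step that the authors do not state, nor do they state the gene filter. The 18 *MMTV-PyMT*, E0771 and E0771-LG columns return whole reads when taken as log2 CPM after adding 0.5 reads. In the 4T1 columns, 4.43 to 4.81% of values do so, and these columns were taken as length-normalized without a test. Here each experiment was fitted with limma (lmFit, eBayes with trend and robust) on the deposited log2 values, and differences between lines or models on 12 samples. A gene was tested where at least 3 samples reached 1 above the sample minimum off the log scale, and p-values were adjusted by Benjamini-Hochberg over all genes tested. Per-kb levels used exon lengths from GENCODE, except in 4T1. The genes and lists were chosen with earlier results of these data known. Named were the 9 genes, genes from among the up to 6 of each list with the largest change among those called in E0771 or E0771-LG, and the 3 genes most like each of the 8 by Pearson's r. Genes called in opposite directions in the lines, and *Rps6ka3* and *Ccl2*, were named after their values were seen.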

Additional observations from a re-analysis of the deposited data

Results flagged for a closer look

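The effect of shPTN differed between the lines, by a test of the difference itself in limma, for 4 of the 8 genes. Of all 10600 genes tested, 34% were called in the same test. The effect in E0771-LG minus that in E0771 was 0.56 (log2) for *Jun*, 1.40 for *Junb*, 1.34 for *Jund* and 2.17 for *Atf3*. That for *Jun* was not called with all 24 samples in 1 fit (adjusted p = 0.119; range 0.00166 to 0.119). What lies behind these differences was not tested.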

How the results depend on the processing

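Over the 8 genes and all comparisons, 871 alternative values were computed: 778 kept their direction and side of the threshold, 27 no longer passed, 12 newly passed and 54 changed sign. With all 24 samples in 1 fit, the genes called numbered 6 in 4T1, 5 in *MMTV-PyMT*, 999 in E0771, 2382 for the difference between the lines and 1 for that between the tumor models, and of the 8 genes 1 was called in E0771 and 2 in E0771-LG, *Jund* and *Egr1*, the latter not counted as support. With median-of-ratios scaling, 5 of the 8 were called between the shCtrl lines, where 6049 of all 10600 genes tested were called. *Jun* in *MMTV-PyMT* was -0.0082 with quantile normalization and -0.042 with median-of-ratios scaling, *Fosl1* in E0771 0.02 and 0.0088, and *Egr1* in E0771 -0.087 with a pseudocount of 1 and -0.49 with quantile normalization. The cause was not tested.

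Leaving out 1 library at a time gave these ranges. In 4T1, *Jun* ran from -0.042 to 0.13, *Junb* from -0.042 to 0.11, *Fos* from -0.21 to 0.19, *Fosl1* from -0.32 to 0.37, *Fosl2* from -0.30 to 0.028, *Jund* from 0.18 to 0.59, *Atf3* from -1.14 to -0.24 and *Egr1* from -0.66 to -0.20. In *MMTV-PyMT*, *Jun* ran from -0.22 to 0.21, *Junb* from -0.46 to 0.14, *Jund* from -0.062 to 0.35, *Fos* from -0.60 to 0.42, *Fosl2* from -0.11 to 0.39, *Atf3* from -0.35 to 0.084 and *Egr1* from -0.63 to 0.31. In E0771, 1164 to 2139 genes and 2 to 4 of the 8 were called. In that line, *Fosl1* ran from -0.12 to 0.076, *Fosl2* from -0.18 to -0.062, *Fos* from 0.32 to 0.94 and *Egr1* from -0.80 to 0.22. In E0771-LG, 3206 to 5113 genes were called, and 1 to 4 of the 8 genes, *Egr1* included where tested; it could not be tested without any 1 of the shCtrl libraries. *Atf3* ran from 0.46 to 1.04 and *Fosl1* from 0.041 to 0.23. For the difference between the lines, *Fos* ran from -1.01 to -0.22, *Fosl1* from 0.065 to 0.27 and *Egr1* from -2.78 to -1.27. Between the shCtrl lines, *Egr1* ran from -0.38 to 1.03. For the difference between the tumor models, 0 to 4 genes were called by limma, with 320 at an unadjusted p under 0.05 over all samples, and *Jun* ran from -0.25 to 0.17, *Junb* from -0.49 to 0.11, *Jund* from -0.46 to 0.00093, *Fos* from -0.55 to 0.48, *Egr1* from -0.14 to 0.80, *Atf3* from 0.13 to 1.03 and *Fosl1* from -2.2 to -0.092.

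With a replicate block, which pairs samples by replicate number, 2450 genes were called in E0771, 5012 in E0771-LG and 3682 for the difference between the lines, and *Atf3* in E0771-LG was called (0.73; adjusted p = 0.00271, range 0.00251 to 0.212). The labels do not state that the numbers pair samples. At 15627925 to 21117920 reads, *Fos* and *Egr1* in cultured cells rest on at most 51 reads per sample, and the 4T1 depth is unknown.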
